A study of Mus musculus with 71 samples.

Results

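Tail buds of mouse embryos that lack miR-19a and miR-19b-1 were compared with tail buds of embryos with a wild-type miR-17~92 locus. The members are the 6 libraries that the sample titles name Delta_19_TB (Δ19, replicates 1 to 3) and Wild-type_TB (replicates 1 to 3), of 71 RNA-seq libraries in the series. All embryos were C57BL/6, taken at embryonic day 9.5 with 20 to 22 somites. Tail buds and hearts were microdissected, and the remaining embryo was collected as well. Other groups used here for comparison were Δ17 (miR-17 and miR-20a deleted), Δ18 (miR-18a deleted), Δ92 (miR-92a-1 deleted), Δ17,18 and Δ17,18,92 (the named members deleted together), and Full-KO (the whole cluster deleted). The sources used here do not give zygosity, the number of embryos behind each library or the number of founder lines. The series text calls the replicates biological triplicates.

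miR-17~92 is a polycistron on mouse chromosome 14 whose single primary transcript, Mir17hg, is cut into several microRNAs. A microRNA pairs through its seed with matching bases in the 3′ untranslated region (3′ UTR) of messenger RNAs, which lowers their stability and translation. The members of the cluster fall into seed families, and miR-19a and miR-19b form 1 of them. The miR-19 family is the one most closely tied to the cluster's activity in lymphoma. The tail bud holds the progenitors of the trunk and tail and is the part of the embryo from which the posterior axis grows.

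The deleted microRNAs are shown first because their shared seed defines the target sites examined here. RefSeq (GRCm38.p6) places miR-19a-3p at chr14:115044048-115044070 and miR-19b-3p from Mir19b-1 at chr14:115044358-115044380, both on the plus strand inside Mir17hg. Capitals mark the seed, bases 2 to 8 from the 5′ end.
miR-19a-3p: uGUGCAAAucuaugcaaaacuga
miR-19b-3p: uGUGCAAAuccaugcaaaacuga
The seeds are identical, and the 2 microRNAs differ by U11C, counted from the 5′ end of miR-19a-3p. The same miR-19b-3p sequence is also encoded by Mir19b-2 on chromosome X, a gene of another cluster that the labels do not list as deleted. The other seed families of miR-17~92, which Δ19 embryos keep, are represented by miR-17-5p, miR-18a-5p and miR-92a-3p.
miR-17-5p: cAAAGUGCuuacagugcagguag
miR-18a-5p: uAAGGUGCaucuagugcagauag
miR-92a-3p: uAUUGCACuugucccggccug

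The 6 libraries held 15134178 to 26548139 counts assigned to genes. All 6 carried the marker genes of a tail bud: T (Brachyury) ran from 224 to 271 CPM (edgeR's usual level, a gene's count relative to the TMM-scaled total of its library) and Tbx6 from 84.1 to 108 CPM. Myh6, a cardiomyocyte gene, did not exceed 5.36 CPM. Wild-type replicate 3 stood apart from the other 5. On the first principal component of the 6 libraries, which held 47.5% of the variance, it lay at 27.8 while the others lay between -7.75 and -0.757. It also had the lowest count total, the highest Myh6 level and 52.0 CPM of Xist beside 70.2 CPM of the Y-linked Ddx3y. The other tail bud libraries in which Ddx3y exceeded Xist had at most 11.4 CPM of Xist. By Xist and Ddx3y, 2 of the 3 Δ19 libraries and 1 of the 3 wild-type libraries came from females. Their part in the results was not tested. The numbers of called genes, overall and by seed class, are given below also without wild-type replicate 3.

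Neither the gene counts nor a hairpin checks the deletion directly, because the rows of the 6 hairpins of the cluster (Mir17, Mir18, Mir19a, Mir20a, Mir19b-1 and Mir92-1) are at 0 in all 71 libraries. The host transcript Mir17hg stood at 185, 169 and 178 CPM in Δ19 replicates 1 to 3 and at 132, 142 and 111 CPM in wild-type replicates 1 to 3. All Δ19 libraries lay above all wild-type libraries. The log2 fold change was 0.47 (SE 0.07, adjusted p = 4.16e-04 by edgeR's quasi-likelihood test with Benjamini-Hochberg adjustment, used throughout). Among the 5 mutants that keep miR-19, Mir17hg stood below the Δ19 mean in Δ18 (137 ± 9.72 CPM) and Δ92 (168 ± 14.6 CPM) and above it in Δ17 (243 ± 5.66 CPM), Δ17,18 (259.5 ± 10.5 CPM) and Δ17,18,92 (420 ± 14.2 CPM; SD, n = 3 each). Against the mean of these 5 it was lower in Δ19 (log2 fold change -0.36, SE 0.05, adjusted p = 1.26e-04 by edgeR).

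Across the 17009 genes tested, 100 were higher in Δ19 tail buds (0.588%) and 75 were lower (0.441%) at an adjusted p under 0.05 by edgeR. The changes were small: the median size was 0.34 among the risers and 0.30 among the fallers on the log2 scale, and 16 risers and 9 fallers changed by at least 1.5-fold. In 99 of the 100 risers every Δ19 library lay above every wild-type library, which also held for 7.82% of all genes tested. In 74 of the 75 fallers every Δ19 library lay below every wild-type library, against 9.1% of all genes tested. The number of calls moved with single libraries. Leaving out wild-type replicate 3 gave 50 risers and 28 fallers, and 46 of the 100 and 23 of the 75 remained called. Leaving out wild-type replicate 1 gave 247 and 326, and leaving out wild-type replicate 2 gave 414 and 780. Without Δ19 replicates 1, 2 or 3 the numbers were 58 and 28, 53 and 30, and 49 and 19. In every one of these 6 fits, 36 of the risers and 12 of the fallers were called.

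The 4 risers with the smallest p-values, Reep3, Acadm, Suz12 and Rnf11, each had a miR-19 8mer. Reep3, which encodes a membrane-shaping protein of the endoplasmic reticulum, measured 71.1, 75.0 and 78.1 CPM in Δ19 replicates 1 to 3 and 39.3, 43.5 and 34.4 CPM in wild-type replicates 1 to 3. The lowest Δ19 library was far above the highest wild-type library. Its log2 fold change was 0.93 (SE 0.06, adjusted p = 1.60e-09 by edgeR). Acadm, the medium-chain acyl-CoA dehydrogenase of mitochondrial fatty acid oxidation, measured 52.4, 48.0 and 49.6 CPM against 27.4, 27.8 and 25.4 CPM. The groups were again well apart, with a log2 fold change of 0.89 (SE 0.06, adjusted p = 1.60e-09 by edgeR). Rnf11, a RING-domain protein that works with ubiquitin ligases, measured 99.7, 93.7 and 103 CPM against 51.4, 53.9 and 58.9 CPM. Suz12, a core subunit of Polycomb repressive complex 2, measured 308, 283 and 307 CPM against 191, 192 and 158 CPM. Neither Rnf11 (log2 fold change 0.85, SE 0.07) nor Suz12 (0.73, SE 0.06) had overlapping groups, and both had an adjusted p of 5.78e-09 by edgeR.

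Mylip encodes the ubiquitin ligase that sends the LDL receptor for degradation. It measured 74.5, 78.4 and 87.4 CPM in the Δ19 libraries and 47.9, 39.5 and 47.1 CPM in the wild-type libraries, a log2 fold change of 0.84 (SE 0.11, adjusted p = 2.25e-04 by edgeR). Its difference from the mutants that keep miR-19 was smaller, at 0.23 (SE 0.08), and did not pass the threshold (adjusted p = 0.113 by edgeR). Lonrf1, a RING-finger protein, measured 38.4, 40.2 and 32.1 CPM against 20.9, 20.7 and 14.6 CPM, the largest fold change among risers named by size (log2 fold change 0.96, SE 0.13, adjusted p = 1.34e-04 by edgeR). Nbeal2, a BEACH-domain protein required for platelet granules, rose by 0.72 (SE 0.10), and the small GTPase Rhebl1 by 0.70 (SE 0.10). Each of these genes stayed called without any single library. In Nbeal2 the wild-type libraries spanned 8.91 to 9.05 CPM and the Δ19 libraries 13.1 to 16.7 CPM.

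**Figure D1:**
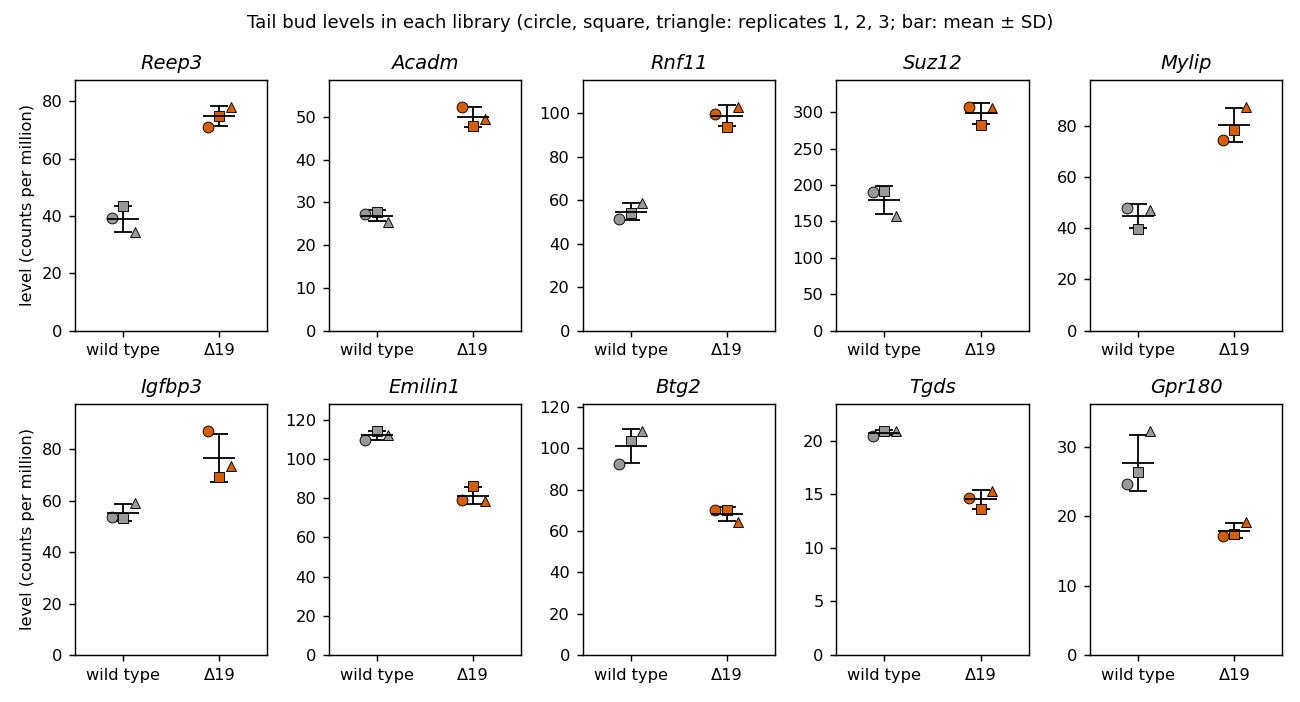
Level of 10 named genes in each of the 6 tail bud libraries (y axis, CPM from 0; x axis, genotype; symbols, replicates 1 to 3; bars, mean ± SD). In all 10 genes the 3 Δ19 libraries lie wholly above or wholly below the 3 wild-type libraries. Wild-type replicate 3 is the wild-type library farthest from Δ19 in Reep3, Acadm, Suz12, Btg2, Gpr180 and, by a narrow margin, Tgds.

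Some risers named by size or p had no 8mer. Uhmk1, a kinase of a splicing factor, has only a 7mer in its annotated 3′ UTR, and measured 265, 279 and 285 CPM against 181, 187 and 154 CPM (log2 fold change 0.67, SE 0.06, adjusted p = 4.02e-08 by edgeR). Ankmy2, an ankyrin-repeat protein, also with only a 7mer, rose by 0.59 (SE 0.09). Zfp568, a KRAB zinc-finger protein needed for early embryonic morphogenesis, measured 315, 336 and 330 CPM against 252, 253 and 233 CPM (0.41, SE 0.05, adjusted p = 3.75e-05 by edgeR). Sema6a, a transmembrane semaphorin with no match, rose by 0.41 (SE 0.06), and its groups of 223 to 228 and 151 to 182 CPM did not overlap. Efcab7, an EF-hand protein with no match, rose by 0.89 (SE 0.20, adjusted p = 0.0342 by edgeR), but it no longer passed when Δ19 replicate 1 (adjusted p = 0.157), Δ19 replicate 3 (0.108) or wild-type replicate 3 (0.172) was left out.

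Among the risers chosen for the smallest p, Hipk1, Igfbp3, Kpna6, Rnf111, Clock and C530008M17Rik carry a miR-19 8mer, while Zfp568 and Sema6a above do not. Igfbp3, a secreted binding protein of insulin-like growth factors, measured 87.2, 69.1 and 73.5 CPM in Δ19 and 53.8, 53.2 and 59.2 CPM in wild type. All 3 Δ19 values were above the wild-type range (log2 fold change 0.47, SE 0.06, adjusted p = 1.75e-04 by edgeR). Hipk1, a nuclear kinase, rose by 0.37 (SE 0.05), with 192 to 196 CPM in Δ19 and 141 to 156 CPM in wild type. Rnf111, the ubiquitin ligase Arkadia that enhances TGF-β signalling, rose by 0.43 (SE 0.06), and Clock, the circadian transcription factor, by 0.46 (SE 0.06). Against the mutants that keep miR-19, Clock differed by 0.12 (SE 0.05) and did not pass (adjusted p = 0.188 by edgeR). Kpna6, an importin that carries proteins into the nucleus, rose by 0.36 (SE 0.05).

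**Figure D2:**
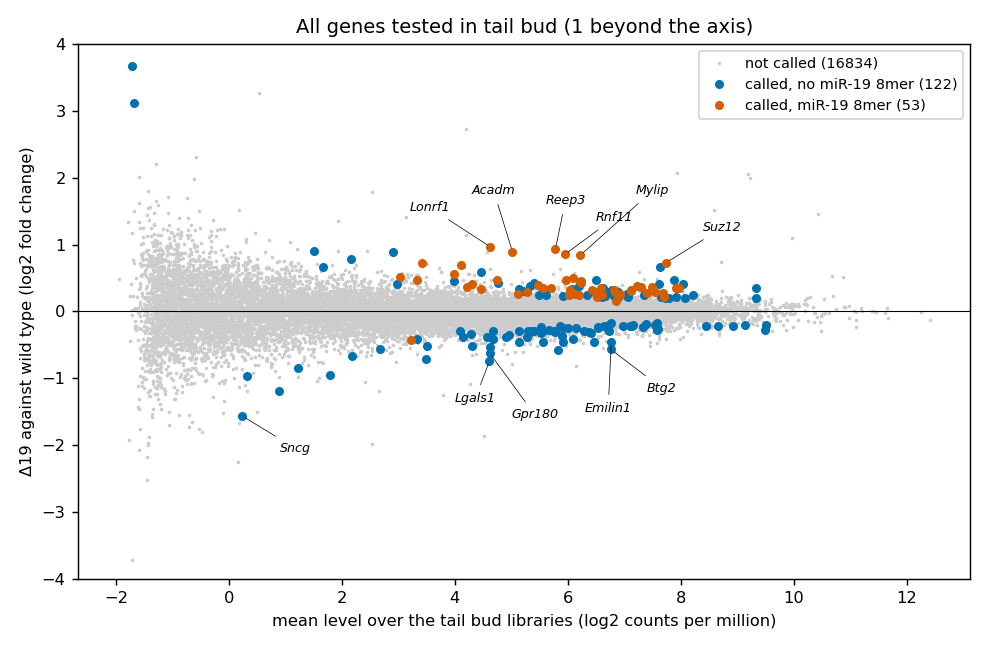
Each of the 17009 genes tested, by mean level over the 24 tail bud libraries (x axis, log2 CPM) and by log2 fold change of Δ19 against wild type (y axis; 1 gene lies beyond it). Called genes are coloured, orange where the 3′ UTR has a miR-19 8mer; 52 of the 53 orange genes lie above 0 and 74 of the 75 fallers are blue.

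Matches to the miR-19 seed were read from the longest annotated 3′ UTR of each gene in GENCODE vM21 (GRCm38), for 13999 of the genes tested. An 8mer is TTTGCACA on the messenger strand (a match to the seed followed by an A), a 7mer-m8 is TTTGCAC and a 7mer-A1 is TTGCACA. Each gene was counted once, under its longest kind of match. Of all 19752 annotated 3′ UTRs, 5.23% hold an 8mer, 6.22% a 7mer-m8 without an 8mer, and 5.55% only a 7mer-A1. Sites of the genes that carried the results are shown with the 8mer in capitals, at the position of its first base counted from the start of the 3′ UTR. These are matches, not measured binding.
Reep3, position 536: ctttcctggctagtTTTGCACActtgaaaa
Acadm, position 441: tatatttgctttgtTTTGCACAaaagagta
Rnf11, position 483: tagttttaagcttgTTTGCACAgttctttt
Rnf11, position 1116: caaatgtgttatgtTTTGCACAccaatgca
Suz12, position 1612: gaaggctagcattgTTTGCACAaaaaattg
Lonrf1, position 121: attgcccgctgcctTTTGCACAcccagtgc
Lonrf1, position 702: cccccatgcttctcTTTGCACAagtatgta
Mylip, position 1314: tatgcatttgtttcTTTGCACAgacatttt
Rnf11 and Lonrf1 have 2 sites each, and the other 4 genes have 1.

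Genes with an 8mer carried more than their share of the rises. Of the 827 genes tested with an 8mer, 52 rose (6.29%) and 1, Sgpp1, fell (0.121%). The corresponding numbers were 10 and 4 of 1015 genes with a 7mer-m8 only, 11 and 3 of 872 with a 7mer-A1 only, and 24 and 66 of 11285 with no match. Thus 8mer genes were 4.86% of the genes tested and 52 of the 100 risers, and genes without a match were 66.3% of the genes tested and 66 of the 75 fallers. The median log2 fold change was 0.08 for 8mer genes, 0.03 for genes with only a 7mer of either kind, and -0.02 for genes with no match, beside -0.01 for all genes tested. The single faller with an 8mer, Sgpp1, fell by 0.43 and lost its call without wild-type replicate 3 (adjusted p = 0.134) or Δ19 replicates 1 or 3 (0.0581 and 0.127). These are descriptions, without a test.

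The rise of 8mer genes was present across the range of 3′ UTR lengths, although 8mer genes had longer 3′ UTRs (median 2532 bases, against 959 for genes with no match). Their median level was also higher, at 5.22 against 4.63 on the log2 CPM scale. In 3′ UTRs of up to 711 bases the median log2 fold change was 0.11 for 61 genes with an 8mer and -0.05 for 4474 with no match. In those of 1850 bases or more it was 0.07 for 537 genes and 0.01 for 2911 genes. Genes with 1 8mer had a median of 0.07 and 5.48% of 766 rose. Of the 54 genes with 2 8mers, 9 rose (16.7%) and the median was 0.12. Genes with an 8mer for another family of the cluster, but none for miR-19, had medians of 0.01 for miR-17, 0.01 for miR-18 and -0.02 for miR-92. Of these genes, 3 of 548, 0 of 213 and 2 of 343 rose, beside 0.588% of all genes tested. In the same order 5, 2 and 9 fell, beside 0.441% of all genes tested.

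**Figure D3:**
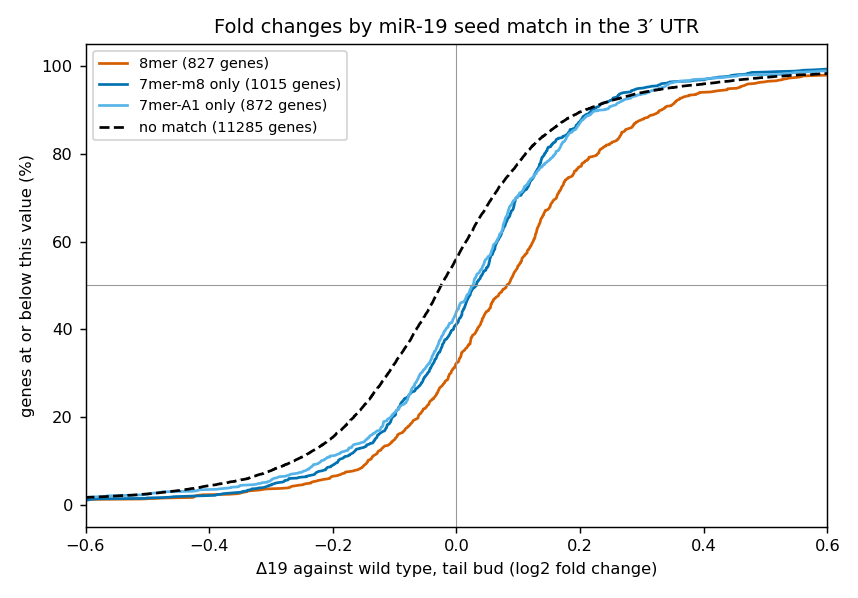
Share of genes (y axis, percent) at or below each log2 fold change of Δ19 against wild type (x axis) for 4 classes of miR-19 seed match. The 8mer curve lies to the right of the no-match curve, with medians of 0.08 and -0.02; both 7mer curves lie between them.

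Library by library, the level of 8mer genes relative to no-match genes separated the genotypes. It was expressed as the median log2 difference from the wild-type mean. It was 0.09, 0.09 and 0.10 in Δ19 replicates 1 to 3 and 0.02, 0.03 and -0.05 in wild-type replicates 1 to 3. All Δ19 libraries were above all wild-type libraries, and wild-type replicate 3 was the lowest of the 24 tail bud libraries. The Full-KO libraries ran from 0.10 to 0.14, and the 15 libraries of mutants that keep miR-19 ran from 0.01 to 0.07. Without wild-type replicate 3 the median fold change of 8mer genes was 0.06 and that of no-match genes -0.01. By class, 34 of the 52 risers with an 8mer were still called without that library, but 3 of the 24 risers with no match. Of the 66 fallers with no match, 22 were still called.

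Among the fallers, Emilin1, an extracellular matrix glycoprotein, measured 79.3, 86.1 and 78.7 CPM in Δ19 and 110, 114 and 112 CPM in wild type. The groups were clearly apart (log2 fold change -0.46, SE 0.06, adjusted p = 1.75e-04 by edgeR). Btg2, an antiproliferative target of p53, measured 70.1, 70.3 and 64.4 CPM against 92.3, 103 and 108 CPM (-0.57, SE 0.09, adjusted p = 0.00204 by edgeR). Efhd2, a calcium-binding EF-hand protein, fell by 0.54 (SE 0.09), with 19.9 to 22.3 CPM in Δ19 and 28.9 to 32.8 CPM in wild type. Rhoc, a small GTPase, fell by 0.58 (SE 0.10), Spsb1, an adaptor of ubiquitin ligases, by 0.52 (SE 0.09), and Cd40, a receptor of the tumour necrosis factor family, by 0.72 (SE 0.14).

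Mfap4, a microfibril-associated protein, fell by 0.46 (SE 0.08, adjusted p = 0.00204 by edgeR), from 41.9 to 50.7 CPM in wild type to 31.8 to 37.7 CPM in Δ19. Gnb4, a G-protein β subunit, fell by 0.33 (SE 0.06). These fallers, from Emilin1 to Gnb4, stayed called without any single library. The following did not. Without wild-type replicate 3 the adjusted p was 0.0635 for Csrp1, a LIM-domain protein, 0.0559 for Ccne2, cyclin E2, and 0.0697 for Ugp2, an enzyme of UDP-glucose synthesis, and it was 0.113 for Tax1bp3, a PDZ protein, and 0.207 for Gm9791. The calls of Ccne2, Ugp2, Tax1bp3 and Gm9791 also ended without Δ19 replicate 1 (0.0581, 0.0519, 0.150 and 0.190), and those of Tax1bp3 and Gm9791 without Δ19 replicate 2 (0.114 and 0.0688) or 3 (0.0625 and 0.0613). Lgals1, a secreted galectin that fell by 0.74 (SE 0.14), lost its call without Δ19 replicate 1 (0.0735) or 3 (0.0531). Slc35a4 and Rgs5 lost theirs without Δ19 replicate 2 (0.0540 and 0.0559), and Myl6, a myosin light chain, lost its call without Δ19 replicate 3 (0.0523).

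A pair of fallers are neighbours of each other on the chromosome of the deletion. Tgds, a sugar-nucleotide dehydratase, and Gpr180, a seven-transmembrane protein, are the fourth and the fifth tested genes downstream of Mir17hg on chromosome 14 in the RefSeq gene order. Tgds measured 14.7, 13.6 and 15.3 CPM in Δ19 and 20.5, 20.9 and 20.9 CPM in wild type (log2 fold change -0.51, SE 0.07, adjusted p = 1.75e-04 by edgeR). Gpr180 measured 17.2, 17.5 and 19.2 CPM against 24.7, 26.4 and 32.4 CPM (-0.62, SE 0.08, adjusted p = 1.20e-04 by edgeR). Neither pair of groups overlapped. Both genes also fell in Δ19 heart (-0.47 and -0.51) and in the rest of the Δ19 embryo (-0.44 and -0.42), each with an adjusted p of 0.00247 or less. In Full-KO against Δ17,18,92 tail buds their changes were -0.12 (SE 0.07, adjusted p = 0.680 by edgeR) and -0.09 (SE 0.08, adjusted p = 0.824). Gpr180 was at the Δ19 level in 2 other deletions, with 17.9 ± 0.731 CPM in Δ17 and 18.3 ± 0.603 CPM in Δ17,18, but at 28.4 ± 1.43 CPM in Full-KO (SD, n = 3 each). Tgds was lowest in Δ19, and next lowest in Δ17,18 (18.8 ± 0.921 CPM) and Δ17 (18.8 ± 1.2 CPM). The genes between Mir17hg and Tgds (Gpc5, Gpc6 and Dct) were not called. Upstream, Spry2, an inhibitor of growth factor signalling and the sixth tested gene before Mir17hg, rose by 0.39 (SE 0.09, adjusted p = 0.0344 by edgeR), a call that ended without Δ19 replicates 2 or 3 or wild-type replicate 3. Of 549 genes tested on chromosome 14, 8 were called (1.46%), beside 1.03% of all genes tested.

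**Figure D4:**
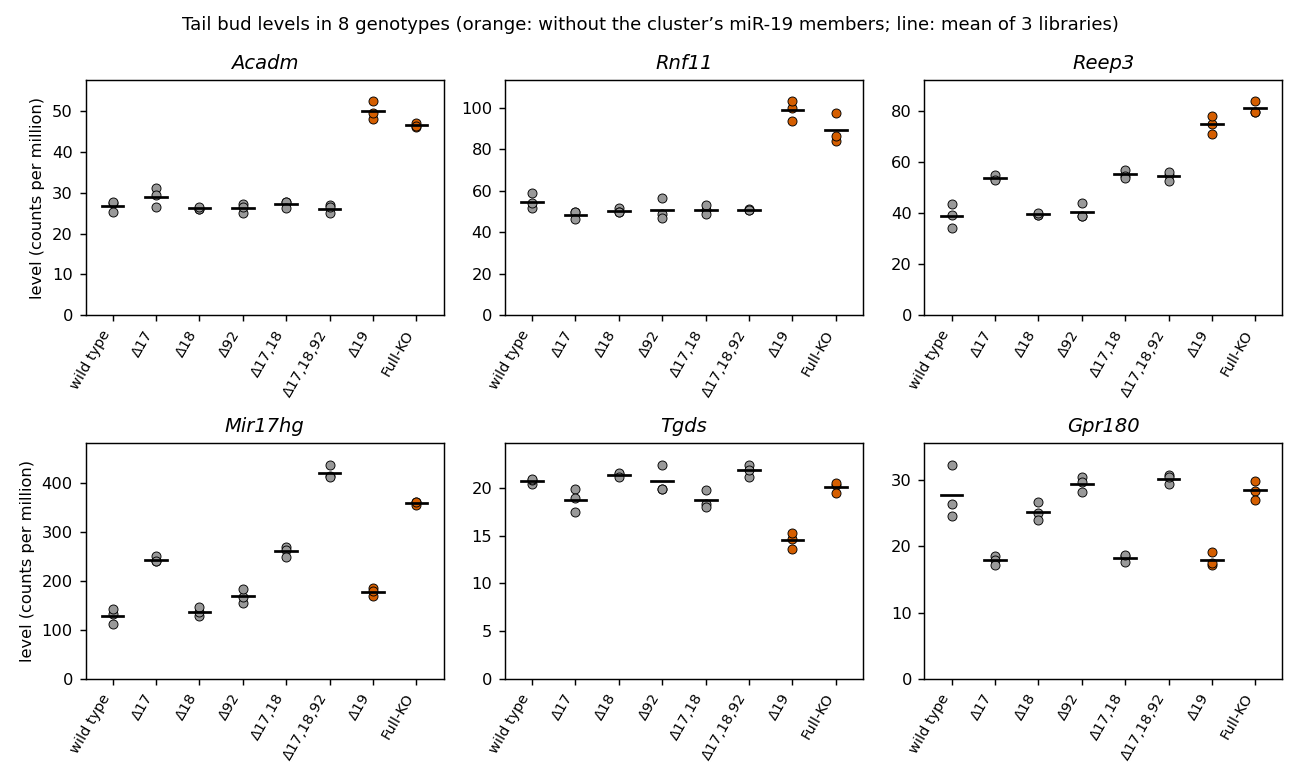
Tail bud levels (y axis, CPM from 0) of 6 genes in 8 genotypes (x axis; points, libraries; lines, means; orange, genotypes without the cluster's miR-19 members). Acadm and Rnf11 are raised only in the orange groups among these genotypes, Reep3 is intermediate in Δ17, Δ17,18 and Δ17,18,92, and Gpr180 is low in Δ17, Δ17,18 and Δ19 but not in Full-KO.

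Most of the gene lists held no called gene. Calls in the lists below stand beside 0.588% of all genes tested that rose and 0.441% that fell. Of 19 genes reported as miR-19 targets, 0 fell, Mylip and Zmynd11 were among those that rose, and the median log2 fold change was 0.05, beside -0.01 for all genes tested. Zmynd11, a chromatin reader, rose by 0.32 (SE 0.05). Socs1, an inhibitor of cytokine signalling, measured 2.72, 3.70 and 2.75 CPM against 1.67, 1.78 and 2.12 CPM, and its log2 fold change of 0.73 (SE 0.21) did not pass (adjusted p = 0.0820 by edgeR). Bcl2l11, the pro-apoptotic BIM, had a value of 0.05 (SE 0.05, adjusted p = 0.666 by edgeR), with 61.4 to 65.8 CPM in Δ19 and 58.1 to 63.2 CPM in wild type. The receptors Bmpr2 (-0.004, SE 0.09) and Tgfbr2 (-0.12, SE 0.11) did not pass either (adjusted p = 0.990 and 0.607 by edgeR). Bcl2l11, Bmpr2 and Tgfbr2 have a 7mer-m8 but no 8mer in the mouse 3′ UTR used here.

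Pik3r3, a regulatory subunit of PI3K with an 8mer, rose. It measured 90.0, 97.3 and 103 CPM in Δ19 against 78.6, 72.8 and 80.9 CPM in wild type (0.32, SE 0.05, adjusted p = 9.81e-04 by edgeR). The groups did not overlap. The median of the list of PI3K and AKT signalling genes was 0.10, and 0 of its genes fell. Of 15 BCL2 family genes and 33 tested genes of TGF-β and BMP signalling, 0 were called by edgeR, while 5 and 6 had an unadjusted p under 0.05, as did 3038 of all 17009 genes (17.9%). Mcl1 (-0.18, SE 0.05, adjusted p = 0.0928 by edgeR) and Smad2 (-0.17, SE 0.05, adjusted p = 0.0785) had the smallest p-values there. Cdkn1a, the cell cycle inhibitor p21, had a log2 fold change of 0.04 (SE 0.17, adjusted p = 0.931 by edgeR). Of 26 cell cycle genes, Ccne2 fell (-0.41, SE 0.08) and 0 rose. Of 15 p53 targets and of 14 tested immediate early and stress genes, 1 fell, Btg2, which is in both lists.

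Of 19 tail bud progenitor genes, Greb1l alone passed, a gene needed for kidney and inner ear formation and abundant here. It measured 691, 747 and 774 CPM in Δ19 and 578, 631 and 523 CPM in wild type (log2 fold change 0.35, SE 0.06, adjusted p = 0.00377 by edgeR). The median of that list was 0.12, with 7 genes wholly above and 1 wholly below the wild-type libraries, beside 7.82% and 9.1% of all genes tested. Of 16 genes of the Notch pathway and segmentation clock, 0 were called, and 3 had an unadjusted p under 0.05, beside 17.9% of all genes. The Notch ligands Dll3 (0.27, SE 0.11, adjusted p = 0.224 by edgeR) and Dll1 (0.19, SE 0.08, adjusted p = 0.232) had the smallest p-values in that list.

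Of 37 Hox genes tested, which specify position along the body axis, 3 rose, beside 0.588% of all genes tested. They were Hoxb5 (0.42, SE 0.09), Hoxb4 (0.46, SE 0.10) and Hoxa5 (0.34, SE 0.08). Their adjusted p-values were 0.0172, 0.0286 and 0.0311 by edgeR. The median of the list was 0.15, and 15 of the 37 lay wholly above the wild-type libraries and 1 wholly below, beside 7.82% and 9.1% of all genes tested. Hoxb4 measured 113, 108 and 107 CPM in Δ19 and 89.8, 83.7 and 62.7 CPM in wild type, with wild-type replicate 3 far below the others. Without that replicate none of the 3 calls held (adjusted p = 0.0635, 0.106 and 0.137). They also ended without Δ19 replicate 1 (0.126, 0.115 and 0.181), those of Hoxb4 and Hoxa5 without Δ19 replicate 3 (0.0766 and 0.0920), that of Hoxb4 without Δ19 replicate 2 (0.0821), and that of Hoxa5 without wild-type replicate 1 (0.0568).

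Lists for the other cell types of the dissected tissue held 1 called gene. Sox2, a factor of neural progenitors, was the only call among 14 tested neural genes (0.34, SE 0.08, adjusted p = 0.0344 by edgeR). Its call ended in 5 of the 6 fits without 1 library, with adjusted p of 0.101, 0.0951 and 0.106 without Δ19 replicates 1 to 3 and 0.0520 and 0.0735 without wild-type replicates 1 and 3. The lists for somite derivatives (12 genes tested), neural crest (10), notochord and gut endoderm (8), surface ectoderm (6), intermediate and lateral mesoderm (10), endothelium (12), primitive erythroid cells (12), cardiomyocytes (12), and visceral endoderm and yolk sac (7) had 0 calls. At an unadjusted p under 0.05 they held 1, 2, 1, 0, 2, 4, 0, 0 and 0 genes, beside 17.9% of all genes tested. Wholly above the wild-type libraries lay 2, 0, 2, 1, 0, 0, 0, 0 and 0 genes, beside 7.82% of all genes tested. Wholly below lay 0, 3, 0, 0, 1, 4, 0, 0 and 1, beside 9.1%. In that order the median log2 fold changes were 0.16, 0.02, 0.12, 0.05, -0.12, -0.15, 0.47, -0.21 and -0.07, beside -0.01 for all genes tested. Without wild-type replicate 3 they were 0.29, 0.06, 0.08, 0.02, -0.08, -0.16, 0.37, 0.13 and 0.01. The neural list had a median of 0.18, and of 0.31 without that replicate. The summed level of the erythroid genes ran from 3728 to 9908 CPM in Δ19 and from 3938 to 5859 CPM in wild type. The summed level of the cardiomyocyte genes ran from 16.0 to 23.9 CPM in Δ19, and was 16.6, 19.5 and 37.1 CPM in wild-type replicates 1 to 3. In bulk tissue, fewer cells of a type and less RNA per cell cannot be told apart.

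Of the remaining lists, that of microRNA machinery had 1 riser of 14, Tnrc6c, a partner of Argonaute proteins (0.31, SE 0.07, adjusted p = 0.0344 by edgeR). Its call ended without wild-type replicate 3 (0.125) or Δ19 replicates 1, 2 or 3 (0.103, 0.119 and 0.0920). The cholesterol and LDL receptor list had 1 riser of 20 tested genes, Mylip. The hypoxia and glycolysis list had 0 calls of 15 and 3 genes with an unadjusted p under 0.05, again beside 17.9% of all genes. In the list of the locus and its neighbours, Mir17hg was the only call of 4 genes. That list does not hold Tgds, Gpr180 or Spry2, whose calls are given above. The 5 sex-linked genes had 0 calls.

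A separate pair of genotypes, each with its own deletion in the cluster, differed by the same 2 microRNAs on another background. The pair shared no library with the comparison above. Both comparisons came from 1 fit of all tail bud libraries, so they shared its estimate of the spread between libraries. Among the cluster's microRNAs, Full-KO and Δ17,18,92 tail buds differ by miR-19a and miR-19b-1, in embryos that lack all other members. There, 47 genes were higher in Full-KO (0.276%) and 11 lower (0.0647%) at an adjusted p under 0.05 by edgeR. Without Full-KO replicates 1, 2 or 3 the sum of both was 28, 36 and 30, and without Δ17,18,92 replicates 2 or 3 it was 30 and 27. Of the 47, 33 had an 8mer for miR-19, beside 4.86% of all genes tested. The 100 genes raised in Δ19 included 32 of the 47, which is 32% of the first list and 68.1% of the second. The 75 genes lowered in Δ19 included 3 of the 11 (4% and 27.3%), namely Mfap4, Rgs5 and Zhx1, of which Zhx1 lost its Δ19 call without wild-type replicate 3 (adjusted p = 0.106) or Δ19 replicates 1, 2 or 3 (0.112, 0.150 and 0.0510). The sign was the same in 94 of the 100 risers and 67 of the 75 fallers, and in 60.4% and 62.1% of all genes with a positive or a negative value in Δ19. These genes were chosen by their Δ19 values. All 52 risers with an 8mer had a positive value in Full-KO, with a median of 0.29 beside 0.35 in Δ19, and 28 were called there. Of the 48 risers without an 8mer, 42 had a positive value, with a median of 0.13 beside 0.32, and 4 were called. The fallers had a median of -0.13 in Full-KO against Δ17,18,92, beside -0.30 in Δ19. For Acadm the log2 fold change of Full-KO against Δ17,18,92 was 0.83 (SE 0.06), for Rnf11 0.81 (SE 0.07) and for Reep3 0.57 (SE 0.06). Ddx3y exceeded Xist in all 3 Full-KO libraries and in 2 of the 3 Δ17,18,92 libraries, and the part of this imbalance was not tested.

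**Figure D5:**
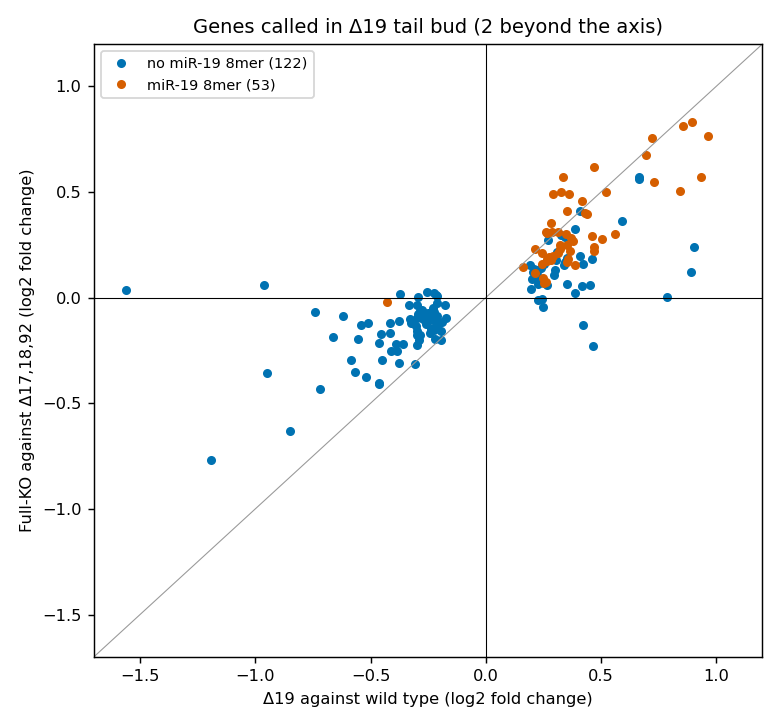
Genes called in Δ19 tail buds, by log2 fold change of Δ19 against wild type (x axis) and of Full-KO against Δ17,18,92 (y axis), with the line of equal values; 2 genes lie beyond the x axis. The genes were chosen by their x values. The 52 risers with a miR-19 8mer (orange) all lie above 0 on both axes, with a median of 0.29 on the y axis against 0.35. The medians are 0.13 against 0.32 for the risers without an 8mer and -0.13 against -0.30 for the fallers.

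The difference between these 2 estimates was tested in the same fit, and 1 gene passed by edgeR. It was Mir17hg itself (0.00588% of genes higher with the intact cluster and 0% lower), which rose with the loss of miR-19 from the intact cluster but had a value of -0.23 (SE 0.07) in Full-KO against Δ17,18,92. At an unadjusted p under 0.05, 898 genes differed.

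Against the 15 libraries of the 5 mutants that keep miR-19, 317 genes were higher in Δ19 (1.86%) and 674 lower (3.96%) by edgeR. This comparison shares the Δ19 libraries with the one above, and its values are given side by side only. Without Δ19 replicates 1, 2 or 3, 548, 499 and 594 genes were called in all. Rnf11 changed by 0.98 (SE 0.05), Acadm by 0.89 (SE 0.05), Suz12 by 0.65 (SE 0.04), Uhmk1 by 0.64 (SE 0.04) and Reep3 by 0.63 (SE 0.05). Acadm was flat across the mutants that keep miR-19, with means of 26.1 to 29.1 CPM, beside 26.9 ± 1.32 CPM in wild type, 50.0 ± 2.26 CPM in Δ19 and 46.5 ± 0.449 CPM in Full-KO (SD, n = 3 each). Reep3 was not: it stood at 53.7 ± 1.06 CPM in Δ17, between wild type (39.0 ± 4.57 CPM) and Δ19 (74.8 ± 3.51 CPM). Fallers with small p-values included Sumf1 (-0.79, SE 0.07), Ankib1 (-0.48, SE 0.04) and Tgoln1 (-0.33, SE 0.03). Tgoln1 has a miR-19 8mer. Against wild type, Ankib1 (means of 51.1 CPM in Δ19 and 55.8 CPM in wild type) and Tgoln1 (95.45 and 104.5 CPM) were not called. Sumf1 was called there, but lost its call in 5 of the fits without 1 library. In the Full-KO comparison above, Sumf1, Ankib1 and Tgoln1 had values of -0.04, -0.01 and -0.03 (adjusted p = 0.95, 0.98 and 0.92 by edgeR). Against the mutants that keep miR-19, the median of 8mer genes was 0.04 and that of no-match genes -0.01.

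In the other tissues of Δ19 embryos, 35 genes were higher in the heart (0.209%) and 33 lower (0.197%), and in the rest of the embryo 173 were higher (0.988%) and 156 lower (0.891%) by edgeR. In heart, 68 calls became 38 and 31 without Δ19 replicates 1 or 2, 168 without Δ19 replicate 3, and 29 and 24 without wild-type replicates 1 or 2. In the rest of the embryo, 329 became 156 without Δ19 replicate 1 and 142, 203 and 216 without wild-type replicates 1 to 3. These are other libraries. Whether they came from the same embryos was not stated, and in all 23 sets of same-numbered tail bud, heart and rest libraries the Xist and Ddx3y pattern matched, so the tissues may not be independent. Of the 100 tail bud risers, 54 also rose in the rest of the embryo (31.2% of the 173 there) and 15 in the heart (42.9% of the 35 there). Of the 75 fallers, 17 fell in the rest of the embryo (10.9% of the 156) and 4 in the heart (12.1% of the 33). The 52 risers with an 8mer had a median of 0.28 in the rest of the embryo and 0.17 in the heart. Suz12 rose by 0.69 (SE 0.03) in the rest of the embryo and 0.46 (SE 0.05) in the heart, and Reep3 by 0.82 (SE 0.05) and 0.46 (SE 0.06).

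A test of the difference between tissues called 11 genes with a more positive Δ19 effect in tail bud than in heart (0.0626%) and 2 with a more negative one (0.0114%). The fit had no term for the embryo, so tissues that may come from the same embryo were treated as independent. Acadm was among the 11, with a log2 fold change of 0.89 in tail bud and 0.34 in heart (difference 0.57, SE 0.09, adjusted p = 0.0163 by edgeR). Rnf11 was as well, with 0.85 and 0.41 (difference 0.46, SE 0.09, adjusted p = 0.0408 by edgeR). Efhd2, which fell in tail bud, had a value of -0.04 in heart (difference -0.48, SE 0.08, adjusted p = 0.0163 by edgeR). These calls rest on single libraries: leaving out Δ19 heart replicate 1, Δ19 heart replicate 2 or wild-type heart replicate 2 left 0 calls, and leaving out Δ19 tail bud replicate 2 left 6. Without wild-type tail bud replicate 2 or 3 there were 21 and 22. Between tail bud and the rest of the embryo, 0 genes differed in either direction (0%) by edgeR, with 782 at an unadjusted p under 0.05 and 5 by DESeq2.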

How the data were processed

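The authors deposited whole-number read counts per gene for 37620 Ensembl gene IDs in 71 libraries. The submitters' processing notes name mm9 and NCBIM37 and the tools featureCounts, Subread 1.4.2, STAR 2.3.0 and, besides these, SAMtools 0.1.14. Per the labels' protocols, RNA was extracted in TRIZOL and read as single reads of 50 bases. The sources used here give neither strand setting nor annotation release, so reads of antisense and overlapping genes cannot be told apart.

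Symbols (32897 IDs) and 3′ UTRs came by gene ID from GENCODE vM21 (GRCm38), a later build. All 24 tail bud libraries were fitted together, 1 mean per genotype, with edgeR 4.0.16 in R 4.3.3 (filterByExpr, TMM, robust quasi-likelihood, adjusted p under 0.05), so the spread was shared across genotypes (biological coefficient of variation 8.74%). Heart and rest of embryo were fitted alike, and differences between tissues in 18 libraries. DESeq2 1.42.0 was an alternative. Each p-value sets a difference against the spread between libraries of a genotype. That spread was estimated over all libraries of the fit, not only those compared.

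Named genes were 7 set genes, up to 12 per direction by size, 8 by p, 8 called genes with an 8mer, and the called or smallest-p genes of each list and comparison. Choices by size or p required an average of 2 or more on the log2 CPM scale. The members, lists and rules were chosen with earlier results of these data known. Some named genes are not reported here.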

Additional observations from a re-analysis of the deposited data

Results flagged for a closer look

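The following genes had effects of miR-19 loss that differed between 2 backgrounds or 2 tissues by a test of the difference itself with edgeR, adjusted over all genes. Mir17hg differed between the intact cluster and the cluster without its other members by 0.70 on the log2 scale (SE 0.10, adjusted p = 0.00290), with 0.47 in the first and -0.23 in the second. The other 13 differences are between the Δ19 effect in tail bud and in heart, as tail bud minus heart.

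Synm, an intermediate filament gene, differed by 0.99 (0.43 in tail bud, -0.54 in heart), and Pappa, a protease of IGF-binding proteins, by 0.78 (0.48 and -0.28). Acadm differed by 0.57 (0.89 and 0.34) and Rnf11 by 0.46 (0.85 and 0.41), both with a rise in each tissue. Efhd2 differed by -0.48 (-0.54 and -0.04). Neither Synm nor Pappa passed in tail bud alone (adjusted p = 0.152 and 0.165), nor did these: Asxl3 differed by 0.68, Uggt2 by 0.76, Sorl1 by 0.46, Cacna2d1 by 0.75, AW551984 by 0.78 and Epb41l4a by -0.93. ENSMUSG00000090630 differed by 1.1 (0.32 and -0.76), and ENSMUSG00000086865 by 5.09 at very low counts. The differences against heart were not called when Δ19 heart replicate 1, Δ19 heart replicate 2 or wild-type heart replicate 2 was left out.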

How the results depend on the processing

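Fitting only the 6 libraries left 8 risers and 2 fallers: Rnf11, Acadm, Reep3, Mylip, Suz12, Uhmk1, Btg2 and Emilin1, all also called in the full fit, and Mid1 and Gm15726, which were not. DESeq2 gave 181 and 151. Leaving out 1 library gave 49 to 414 risers and 19 to 780 fallers; RLE factors, no filter on low counts and a non-robust fit stayed within 1.5 times. Against the mutants that keep miR-19, 499 to 594 of 991 genes were called without 1 Δ19 library. For Full-KO against Δ17,18,92 (58 genes), DESeq2 gave 107, its 6 libraries alone 104, and leave-outs 27 to 39. For the difference between backgrounds (1 gene), leave-outs gave 1 to 2. In heart (68 genes), DESeq2 gave 175, no filter 630, 6 libraries 130, and leave-outs 24 to 168. In the rest of the embryo (329 genes), no filter gave 593, 6 libraries 178, and leave-outs 142 to 408. For tail bud against heart (13 genes), DESeq2 gave 26, no filter 22, and leave-outs 0 to 22. For tail bud against the rest (0 genes), DESeq2 gave 5 and leave-outs 0 to 1. The cause of these shifts was not tested.

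Values changed sign for 4 named genes that were not called. Bmpr2 was 0.000671 without the filter and 0.00149 in 6 libraries, and ran from -0.0566 to 0.0687 when 1 library was left out, above 0 without Δ19 replicate 2 or wild-type replicate 2. In the same fits Cdkn1a ran from -0.0695 to 0.289 (below 0 without Δ19 replicate 2 or wild-type replicates 2 or 3), Myl7 from -1.05 to 0.136 (above 0 without wild-type replicate 3) and Cubn from -0.898 to 0.238 (above 0 without wild-type replicate 2).

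With the replicate number as a block, 101 genes rose and 78 fell, and 93 and 65 of the original calls remained. The numbers were not shown to pair the embryos: deviations of same-numbered Δ19 and wild-type libraries correlated at 0.215, 0.0116 and -0.0149, and Δ19 replicates 2 and 3 did not correlate best with their own number. At these depths genes under about 1 CPM, such as Gm5089, rest on few counts.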

Other observations

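Some genes raised in Δ19 tail buds belong to no list above and were chosen after their values were seen. Mycn, a MYC-family transcription factor with a miR-19 8mer, measured 271 ± 19.3 CPM in Δ19 and 212 ± 4.58 CPM in wild type (SD, n = 3 each; log2 fold change 0.35, SE 0.08, adjusted p = 0.0444 by edgeR), a call that ended without wild-type replicate 3 (0.184) or Δ19 replicates 1 or 2 (0.175 and 0.150). Ccm2, a vascular adaptor protein with an 8mer, measured 80.4 ± 4.66 and 64.3 ± 7.87 CPM (0.33, SE 0.06, adjusted p = 0.00520 by edgeR), and its call ended without Δ19 replicate 2 (0.0540).

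Among the fallers outside the lists, also chosen after their values were seen, were Vim (vimentin), Serpinh1 (the collagen chaperone HSP47) and Mmp2 (a matrix metalloproteinase). Vim measured 358 ± 4.87 CPM in Δ19 and 418 ± 11.9 CPM in wild type, Serpinh1 673 ± 20.8 and 779 ± 33.1 CPM, and Mmp2 139.9 ± 4.05 and 159.5 ± 5.07 CPM (SD, n = 3 each). The adjusted p-values were 0.0409, 0.0425 and 0.0218 by edgeR. All 3 calls ended without Δ19 replicate 1 (0.154, 0.114 and 0.132), 2 (0.115, 0.0804 and 0.0735) or 3 (0.111, 0.179 and 0.0591). Those of Vim and Serpinh1 also ended without wild-type replicate 3 (0.0948 and 0.183), and those of Vim and Mmp2 without wild-type replicate 1 (0.0618 and 0.0533).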
